A study of Astragalus chrysochlorus with 2 samples.

Results

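The vesicle coat, exocyst and ARF regulator unigenes of Astragalus chrysochlorus callus were described in 1 Se-treated and 1 control library. The group holds 5 of the 82566 unigenes in the deposited table. They were chosen by their identifiers from a list of unigenes that the study had selected for a large difference between these same libraries, so their own ratios are given as a description and not as a finding. The names are matches to proteins of other legumes. CL7211.Contig1_All matched a brefeldin A-inhibited guanine nucleotide-exchange protein of Medicago truncatula, and CL10284.Contig4_All matched the ADP-ribosylation factor GTPase-activating protein AGD3 of the same species. CL1904.Contig13_All and Unigene22269_All both matched coatomer subunit beta-prime-2-like of Glycine max, and Unigene28742_All matched exocyst complex component 2-like of Glycine max. The ending shared by all identifiers is left out from here on.

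Both groups were kept on MS medium with 0.5 mg/L of the auxin 2,4-D. For the Se-treated callus, aged 21 days at the start, sodium selenate was added at 5 mg/L over 3 weeks, and for the control callus none was added. Callus is an undifferentiated tissue, here from long-term cultures of A. chrysochlorus, a legume that accumulates selenium. Several dishes were grown per condition, and whether they were pooled is not given in the sources used here. With 1 library per condition no difference below has a replicate check.

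Membrane vesicles carry proteins and lipids between the endoplasmic reticulum, the Golgi, endosomes, the vacuole and the plasma membrane. Small GTPases of the ARF family start the budding of a vesicle. An exchange factor loads ARF with GTP, the loaded ARF recruits a coat such as COPI (coatomer) or clathrin with its adaptors, and a GTPase-activating protein makes ARF hydrolyse the GTP so that the coat can leave. The exocyst is a complex that tethers secretory vesicles to the plasma membrane before they fuse. In plants this traffic also places auxin carriers and wall-building enzymes at the cell surface.

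The libraries were of nearly equal depth, with a mean of 202.3 fragments per unigene in the Se-treated library and 202.6 in the control, and the median unigene had 21 and 22. At least 1 fragment was found for 81161 and 81479 unigenes in these libraries. FPKM, the fragment count divided by unigene length and by library size, was computed from these counts, and a difference is given as log2 of Se-treated FPKM divided by control FPKM. Its 95% interval is an exact binomial one and covers counting error only, because each condition has 1 library. It treats the fragments as independent molecules, and where they are not, it is too narrow. A unigene was called where its FDR, from an Audic-Claverie test of its 2 counts adjusted over all unigenes, did not exceed 0.001 and its log2 ratio reached 2 in size, which is 4-fold. The test compares 2 libraries and not the conditions. In bulk tissue, a change in the share of cells that use a gene and a change of its RNA per cell cannot be told apart. No marker check of the callus was made, because the deposited table pairs no identifiers with names.

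All 5 unigenes were called, 4 higher and 1 lower in Se-treated callus, as their selection required. Of all unigenes, 1.59% were called higher and 1.10% lower, and nothing is read from the members' count beside these shares. The counting intervals of the Se-treated and control levels were apart in each of the 5, which also follows from their selection on these counts. The member nearest to the threshold was CL7211.Contig1 at a log2 ratio of 2.06. Among the related unigenes described below, those just inside it were Unigene2643 and CL324.Contig2, both at 2.01, and those just outside were CL1904.Contig10 at 1.84 and CL1904.Contig1 at 1.83.

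**Figure D1:**
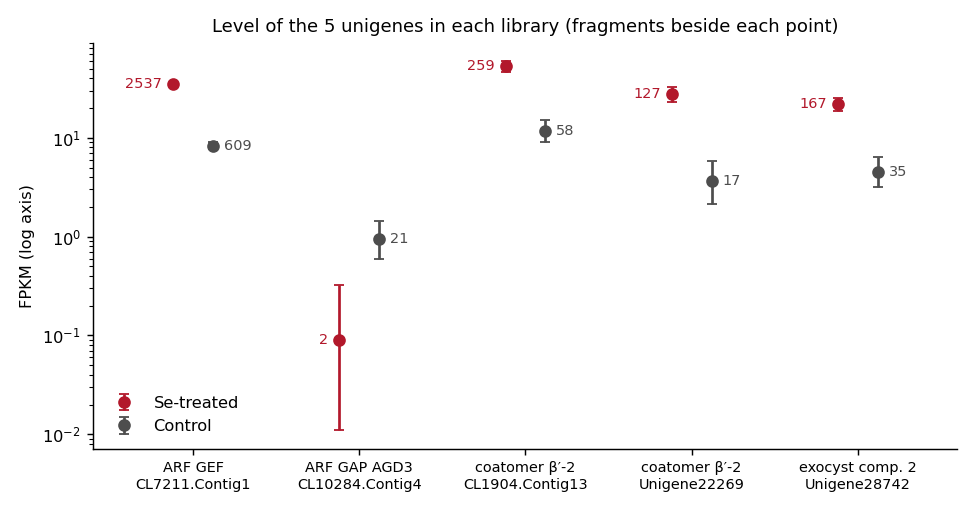
FPKM (log axis) of the 5 unigenes in the Se-treated (left point of each pair) and control (right point) library, with the exact 95% Poisson interval of each count as bars and the fragments beside each point. The 4 higher unigenes lie between 21.7 and 52.7 FPKM in the Se-treated library, against 3.67 to 11.8 FPKM in the control, while CL10284.Contig4 lies at 0.0907 against 0.950 FPKM.

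The exchange factor had by far the most fragments of the group. Proteins of its class are the targets of the fungal toxin brefeldin A, which blocks secretion, and load ARF with GTP at the trans-Golgi network and endosomes. CL7211.Contig1, 4370 nt long, had 2537 fragments (34.8 FPKM) in Se-treated callus, against 609 fragments (8.33 FPKM) in the control. This is a log2 ratio of 2.06 (95% counting interval 1.93 to 2.19), or 4.17-fold. Its level stood at percentile 94.7 of all unigenes in the Se-treated library and at percentile 81.6 in the control. With this depth the counting interval is narrow, and what is not measured is the spread between cultures.

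Both other contigs of its cluster were also higher in Se-treated callus. A cluster, marked by a shared CL number, groups contigs of similar sequence that may be transcript forms or gene copies and can share reads. The mapping setting given by the study (SOAP, -r 1) reports 1 hit for a read with several equally good matches. How such reads entered the deposited fragment counts is not given in the sources used here. CL7211.Contig2, almost as long at 4355 nt, had 1052 fragments in the Se-treated library and 344 in the control, a log2 ratio of 1.62 (1.44 to 1.79). The short CL7211.Contig3 (507 nt) had 190 and 130 fragments in these libraries, a log2 ratio of 0.55 (0.22 to 0.88). The 3 contigs thus differed in size of ratio while they shared its direction. CL7211.Contig1 exceeded CL7211.Contig2 by 0.45 (0.23 to 0.66) and CL7211.Contig3 by 1.51 (1.16 to 1.86) on the log2 scale, counting error only. An excess was favoured by the selection of CL7211.Contig1 for its high ratio, and these intervals leave shared reads out of account.

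Summed over the cluster there were 3779 fragments in Se-treated callus, against 1083 in the control, a log2 ratio of 1.81 (1.71 to 1.90). CL7211.Contig1 made up 67.1% (65.6 to 68.6, exact binomial interval) of the cluster in the Se-treated library and 56.2% (53.2 to 59.2) in the control. Without it the rest of the cluster still had a log2 ratio of 1.39 (1.24 to 1.55). Of 330 clusters with a contig called higher and fragments of other contigs in both libraries, 27.9% had a rest at least 2-fold higher. By fold alone, without the FDR, 17.0% of all unigenes were at least 2-fold higher and 17.2% at least 2-fold lower.

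The GTPase-activating protein was the only member called lower, and it had the fewest fragments. Proteins of this class return ARF to its GDP-bound state, and in Arabidopsis AGD3 is also known as VAN3 or SCARFACE, which acts in leaf vein patterning. CL10284.Contig4, 1321 nt long, had 2 fragments (0.0907 FPKM) in Se-treated callus, against 21 fragments (0.950 FPKM) in the control. The log2 ratio of -3.39 has a counting interval of -6.53 to -1.36. Its level stood at percentile 5.43 of all unigenes in the Se-treated library and at percentile 27.5 in the control. Both counts were below the median count of a unigene in their library.

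The cluster of this contig, as a whole, went the other way. CL10284.Contig1, the longest contig of the cluster with 3238 nt, had 1139 fragments (21.1 FPKM) in Se-treated callus and 776 (14.3 FPKM) in the control, a log2 ratio of 0.56 (0.42 to 0.69). The other 4 contigs, of 404 to 1305 nt, had between 3 and 20 fragments in the Se-treated library and between 8 and 35 in the control. All 4 had negative log2 ratios, from -1.41 to -0.73, but each of their intervals held 0. None was called lower at a log2 ratio of 1, where 4.65% of all unigenes were. These 4 together had 36 and 67 fragments in the Se-treated and control libraries, a log2 ratio of -0.89 (-1.52 to -0.29). With CL10284.Contig4 added, which was selected for its low ratio, the counts were 38 and 88. That is a log2 ratio of -1.21 (-1.80 to -0.64), and a lower value was favoured by the selection.

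The cluster sum was 1177 fragments in Se-treated callus, against 864 in the control, a log2 ratio of 0.45 (0.32 to 0.58). CL10284.Contig4 was 0.170% (0.0206 to 0.612) of this sum in the Se-treated library and 2.43% (1.51 to 3.69) in the control. The lower level named for AGD3 was therefore that of a minor contig, and the fragments of its cluster as a whole were more frequent in the Se-treated library. Of 295 contigs called lower at 4-fold in clusters of 2 or more, 8.47% had a cluster sum that was higher. A sum with a log2 ratio as high as that of CL10284 or higher was found in 26.2% of 9271 clusters of 2 or more contigs. The sign of CL10284.Contig4 and its share of the cluster may depend on how reads that also match other contigs of CL10284 were assigned, which was not tested.

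**Figure D2:**
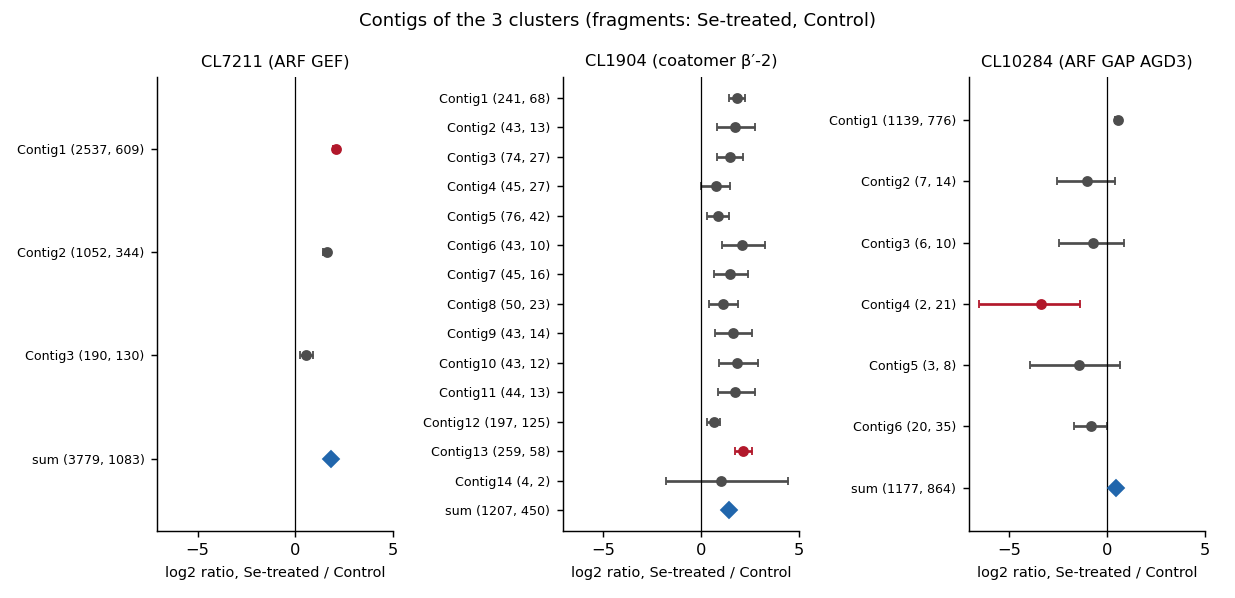
Se-treated over control log2 ratio, with its exact 95% counting interval, for every contig of CL7211, CL1904 and CL10284 (red for the described contig, grey for the others) and for the cluster sum (blue diamond), with the fragments of both libraries beside each name. All contigs of CL7211 and CL1904 lie above 0, while in CL10284 the sum (0.45) and CL10284.Contig1 (0.56) lie above 0 and the other 5 contigs below it.

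Both coatomer pieces were higher in Se-treated callus. The beta-prime subunit belongs to the outer layer of the COPI coat, which returns proteins from the Golgi to the endoplasmic reticulum, and it recognises sorting signals in the tails of these cargo proteins. CL1904.Contig13, only 294 nt long, had 259 fragments (52.7 FPKM) in the Se-treated library, against 58 (11.8 FPKM) in the control, a log2 ratio of 2.16 (1.75 to 2.60). Unigene22269, with 277 nt, had 127 fragments (27.5 FPKM) in Se-treated callus, against 17 (3.67 FPKM) in the control, a log2 ratio of 2.90 (2.17 to 3.73). This is 7.48-fold, the largest fold of the 4 higher members, but its 17 control fragments were below the median count of 22 in that library. The ratio of CL1904.Contig13 was lower than that of Unigene22269 by 0.74 on the log2 scale, with an interval of the difference from -1.58 to 0.10, so that the pair cannot be ranked within counting error. Both pieces are short, and with Unigene28742 3 of the 5 members were under 500 nt, as were 36.3% of all unigenes.

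CL1904 is a large cluster, and all of its 14 contigs had positive log2 ratios. One other of them, CL1904.Contig6, was itself on the study's list of changed unigenes. CL1904 was the 1 cluster with every contig higher among the 30 (3.33%) that had at least 10 contigs and a contig called higher at 4-fold. Among the 12 contigs other than CL1904.Contig13 and CL1904.Contig6 the log2 ratio was between 0.66 and 1.84 with a median of 1.48, and the interval lay above 0 in 11 of them. The exception was CL1904.Contig14, with 4 fragments in Se-treated callus and 2 in the control. When the log2 ratio had to reach only 1, with the same FDR, 7 of these 12 were called higher. This was the case for 5.50% of all unigenes, and for 12.1% of the 1155 contigs that were not called at 4-fold themselves but shared a cluster with one called higher. The contigs share sequence, so they are not separate measurements of the subunit.

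The contigs differed widely in level. The 11 contigs of more than 2000 nt had 43 to 197 fragments in the Se-treated library (0.754 to 4.56 FPKM) and 10 to 125 in the control (0.190 to 2.89 FPKM). In contrast, CL1904.Contig1 with 426 nt had 241 fragments (33.9 FPKM) in Se-treated callus and 68 (9.54 FPKM) in the control, levels like those of CL1904.Contig13. Its log2 ratio of 1.83 (1.43 to 2.24) was also near that of CL1904.Contig13, with a difference of 0.33 (-0.23 to 0.90). The long contig with the most fragments, CL1904.Contig12, had 197 and 125 in the Se-treated and control libraries and the smallest ratio of the cluster, 0.66 (0.33 to 0.99). The interval of the difference between CL1904.Contig13 and this contig ran from 0.98 to 2.03 on the log2 scale. It sets a contig selected for a high ratio against the one with the smallest, so a difference was favoured.

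Over all 14 contigs of CL1904 there were 1207 fragments in Se-treated callus, against 450 in the control, a log2 ratio of 1.43 (1.27 to 1.59). Without CL1904.Contig13 it was 1.28 (1.11 to 1.45). With the selected CL1904.Contig6 left out as well, there were 905 and 382 fragments in the Se-treated and control libraries. That is a log2 ratio of 1.25 (1.07 to 1.42). CL1904.Contig13 held 21.5% (19.2 to 23.9) of the cluster's fragments in the Se-treated library and 12.9% (9.93 to 16.3) in the control. With Unigene22269 added, the unigenes matched to this subunit or clustered with it had 1334 fragments in Se-treated callus and 467 in the control, which is 2.86-fold. This sum was higher by less than either short piece alone. It includes CL1904.Contig13, CL1904.Contig6 and Unigene22269, all selected for a high ratio, so a higher sum was favoured. It covers only these unigenes, since others that may encode the subunit carry no names in the deposited table.

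The exocyst unigene was higher in Se-treated callus by a similar ratio. Component 2 of the exocyst is called SEC5 in plants and yeast, and it is one of the core subunits of the complex. Unigene28742, 460 nt long, had 167 fragments (21.7 FPKM) in the Se-treated library, against 35 (4.55 FPKM) in the control. The log2 ratio was 2.26 (1.72 to 2.83), or 4.78-fold. Its level stood at percentile 91.8 of all unigenes in the Se-treated library and at percentile 70.5 in the control. Neither this unigene nor Unigene22269 lies in a cluster, so no second contig can be set beside it. Both carry numbers under 30000, where 46.2% of 29954 unigenes had a positive log2 ratio. This range was chosen after the values were seen, and its part in the ratios was not tested.

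The 4 higher members had log2 ratios of 2.06 to 2.90, while the median over all unigenes was -0.09. Between CL7211.Contig1, CL1904.Contig13 and Unigene28742 the differences in log2 ratio were at most 0.20 in size, and each interval of a difference held 0. CL7211.Contig1 was lower than Unigene22269 by 0.84 (-1.58 to -0.10). These are differences between unigenes chosen for a high ratio, within counting error only. A spread between cultures was also assumed, with a coefficient of variation of 0.2 on top of the counting error. The 4 higher members then remained called and CL10284.Contig4 did not. Over all unigenes, this left 371 of 1311 higher and 172 of 912 lower calls. At 0.4 none of the 5 was called, nor was any other unigene. Members that remained called are no independent support, because they were selected on these same counts.

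**Figure D3:**
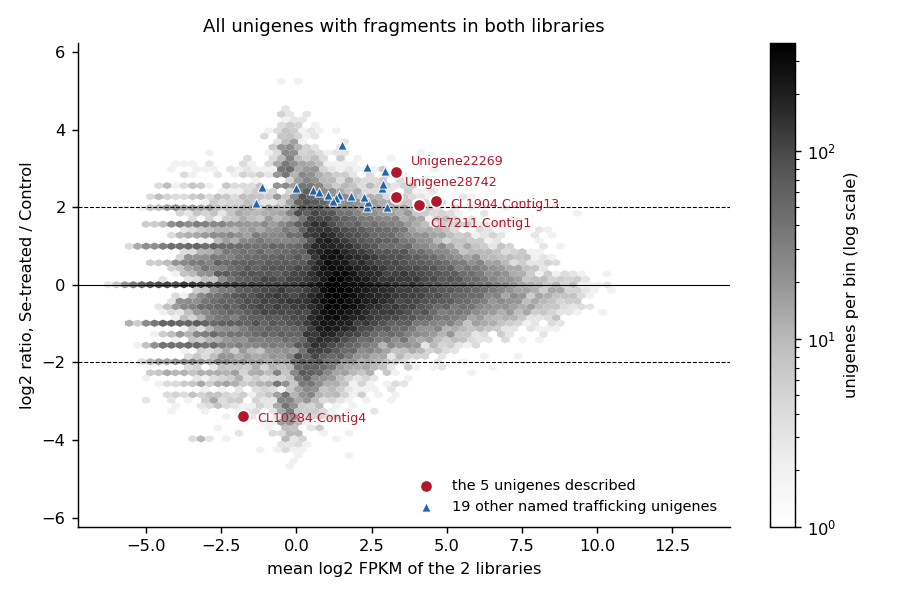
Se-treated over control log2 ratio against the mean log2 FPKM of the 2 libraries, for all unigenes with fragments in both (grey bins, darker for more unigenes), the 5 unigenes described (red circles) and 19 other named trafficking unigenes (blue triangles). The dashed lines mark a log2 ratio of 2 in size. The 4 higher members lie at the upper edge among unigenes of higher mean FPKM, and CL10284.Contig4 lies at -3.39 among those of low mean FPKM.

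By level in both libraries, the unigenes nearest to each member were taken from 39148 candidates with at least 50 fragments, by the Euclidean distance of log2 FPKM over the 2 libraries. Unigene5763 (22.1 FPKM in Se-treated and 4.49 FPKM in control callus) lay 0.03 from Unigene28742, Unigene13943 lay 0.04 from CL7211.Contig1, Unigene12741 lay 0.05 from CL1904.Contig13, and Unigene26930 lay 0.17 from Unigene22269. The next nearest were CL150.Contig15, Unigene7985, CL139.Contig6 and Unigene26078 in the same order. For CL10284.Contig4 the nearest, CL459.Contig4 and CL7434.Contig2, were 1.03 and 1.11 away, because a candidate needed more fragments than that contig had.

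Another 20 named unigenes of vesicle traffic come from the same list of selected unigenes, so each was again past 4-fold by selection. With the 5 members this gives 25 unigenes, 23 higher and 2 lower in Se-treated callus. Of all 2223 calls at that threshold 59.0% were higher. This share covers calls with and without a protein name, while all 25 carry one, so it is not a like background for them. The direction of these contigs is no independent evidence. The remaining contigs of their clusters are those not taken from the list. That list was cut on these same libraries, so they are not free of the selection, and they can share reads with the selected contigs.

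A second ARF exchange factor was higher in Se-treated callus together with the rest of its cluster. CL1742.Contig2, matched to a brefeldin A-inhibited exchange protein 1-like, had 167 fragments (7.83 FPKM) in Se-treated callus, against 34 (1.59 FPKM) in the control, a log2 ratio of 2.30 (1.76 to 2.88). The rest of its cluster, 1 contig, had 7152 and 3457 fragments in the Se-treated and control libraries, a log2 ratio of 1.05 (0.99 to 1.11). As sums, both exchange-factor clusters were at least 2-fold higher, with log2 ratios of 1.81 for CL7211 and 1.07 for CL1742. These sums include the contigs selected for a high ratio, so a higher sum was favoured. Without those contigs the log2 ratios were 1.39 and 1.05. A rest at least 2-fold higher was found in 27.9% of the 330 clusters with a contig called higher.

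The coatomer alpha subunit, which sits beside beta-prime in the outer COPI layer, gave smaller ratios as a cluster. CL324.Contig1 had 85 fragments in Se-treated callus and 15 in the control, a log2 ratio of 2.50 (1.70 to 3.40), and CL324.Contig2 had 121 and 30 fragments in these libraries, a log2 ratio of 2.01 (1.43 to 2.64). The other 4 contigs of CL324 together had 3868 and 2443 fragments, or 0.67 (0.59 to 0.74) as a log2 ratio, with 2 of the 4 contigs higher. CL1904.Contig6, a further beta-prime contig from the list, had 43 fragments in the Se-treated library and 10 in the control (2.11, 1.09 to 3.26). The other exocyst unigene, Unigene2643, had 125 and 31 fragments in these libraries, a log2 ratio of 2.01 (1.44 to 2.63).

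The clathrin coat forms vesicles at the trans-Golgi network and at the plasma membrane, and its heavy chain is the building block of the cage. All 6 heavy chain unigenes in the list were higher in Se-treated callus, with log2 ratios of 2.13 to 3.62. Each was past 4-fold by selection, so nothing is read from their number. Unigene6083 was 1523 nt long and the others 295 to 504 nt, and whether they are pieces of the same transcripts was not tested. The best covered was Unigene6083 with 279 fragments in the Se-treated library and 64 in the control (2.13, 1.73 to 2.54), and the largest ratio was that of Unigene40072 with 49 and 4 fragments (3.62, 2.17 to 5.55). Unigene18637 had 114 fragments in Se-treated callus and 14 in the control (3.03, 2.22 to 3.94). CL555.Contig2 had 123 and 16 fragments in these libraries (2.94), but it was 1.10% of its cluster in the Se-treated library and 0.258% in the control. The other 3 contigs of CL555 had 11050 fragments in Se-treated callus and 6186 in the control, a log2 ratio of 0.84 (0.79 to 0.88). In contrast, the rest of CL7737, the other heavy chain cluster, had 75 and 70 fragments, or 0.10 (-0.39 to 0.59) as a log2 ratio.

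Helpers of clathrin vesicles and later steps of traffic had similar named ratios and mixed clusters. The EPSIN 1-like unigene (CL7231.Contig1), an adaptor that bends the membrane, had 187 fragments in Se-treated callus and 42 in the control (2.16, 1.67 to 2.68), and the rest of its cluster had 0.86 (0.23 to 1.52). The dynamin-2B-like Unigene18784, of a family that cuts vesicles free, had 67 and 14 fragments in these libraries (2.26, 1.42 to 3.21). The ALG-2 interacting protein X-like CL731.Contig4, which acts with the endosomal sorting complexes, had 936 and 155 fragments, or 2.60 (2.35 to 2.85) as a log2 ratio. It was 84.4% (82.1 to 86.5) of its cluster in the Se-treated library and 56.4% (50.3 to 62.3) in the control, and the rest of CL731 had a log2 ratio of 0.53 (0.19 to 0.88). In this cluster the named contig was the main one, unlike CL10284.Contig4 or CL555.Contig2.

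The other named unigenes had at most 50 fragments in either library. The vacuolar protein sorting unigenes CL2626.Contig4 and Unigene40656 had 49 and 50 fragments in Se-treated callus, against 9 and 10 in the control. Sorting nexin-16 (CL6566.Contig5) had 26 and 5 fragments in the Se-treated and control libraries, syntaxin-51-like (Unigene17541) 23 and 4, synaptotagmin-1 (CL2375.Contig1) 28 and 5, and the heavy chain unigenes Unigene2023 and CL7737.Contig2 50 and 10, and 38 and 8. VPS35-like (Unigene30847), a subunit of the retromer that recycles vacuolar sorting receptors, was the other lower one, with 0 fragments in Se-treated callus and 15 in the control. With a floor of 3 fragments put in place of the 0, this is 4.99-fold lower. That floor is a setting and not a bound, since the counting interval of the log2 ratio reaches up to -1.84. Unigenes numbered 30000 to 36999, as this one is, had a positive log2 ratio in 11.1% of 6970, and those numbered from 38000, such as Unigene40072 and Unigene40656, in 89.7% of 7446. These ranges were chosen after the values were seen, and their part in the ratios was not tested.

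Over the 12 clusters that hold a named contig, the cluster sum was higher in Se-treated callus in all 12, with log2 ratios of 0.39 to 2.49. After the named contigs were taken out, the rest was higher in 11 of 12 and its interval lay above 0 in 8, with a median log2 ratio of 0.75. The exception was CL2375 of synaptotagmin-1, whose rest had 40 fragments in the Se-treated library and 47 in the control (-0.23, -0.88 to 0.41). All but CL10284 are among the 330 clusters of the table that had a contig called higher at 4-fold and fragments of other contigs in both libraries. A higher rest was found in 10 of these 11, against 74.5% of the 330, whose median log2 ratio of the rest was 0.53. Of 8687 clusters without any contig called at 4-fold, 49.7% had a higher sum. A rest at least 2-fold higher was found in 4 of the 11 clusters, namely CL7211, CL1904, CL1742 and CL2626, against 27.9% of the 330. The last of these rests on 7 fragments in Se-treated callus and 1 in the control. The difference between these shares was not tested, and nothing particular to vesicle traffic is read from them.

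**Figure D4:**
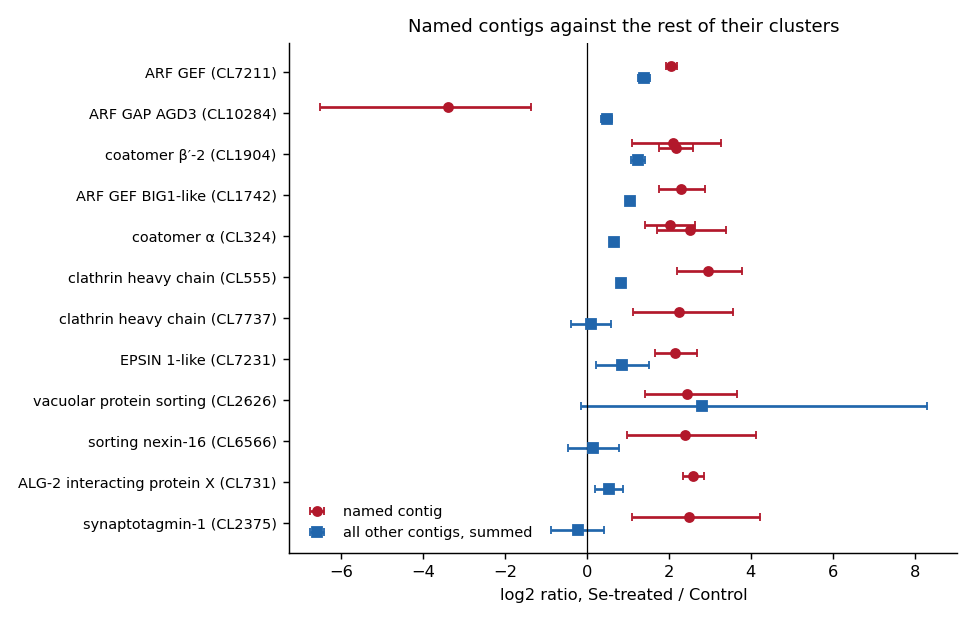
Se-treated over control log2 ratio for each named contig (red circles) and for the sum of all other contigs of its cluster (blue squares), with exact 95% counting intervals, in 12 clusters. The rest of the cluster lies above 0 in 11 clusters, among them CL10284, whose named contig lies at -3.39 and whose rest lies at 0.48.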

How the data were processed

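RNA of 1 Se-treated and 1 control callus library was sequenced in read pairs. The samples were grouped by their labels. The authors removed low-quality reads, assembled unigenes with Trinity (release 20130225), TGICL (2.1) and Phrap (23.0) and mapped reads with SOAP (2.21). The authors deposited whole fragment counts per unigene, not normalized, with lengths. The authors also deposited FPKM, P-value and FDR columns that lost part of their decimal marks, so they are treated as a score without a fixed scale. All 58553 stored Se-treated and 59159 stored control FPKM values without a mark equal 10000 times the FPKM computed from the deposited counts, so FPKM was computed again. The P-value and FDR columns hold the authors' own comparison and were not used.

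An FPKM of 0 was replaced by 0.001. Calls used a two-sided Audic-Claverie test with Benjamini-Hochberg adjustment over 82566 unigenes and the thresholds of the study. Intervals are exact binomial or Poisson at 95%, except that those of a difference between log2 ratios use a normal approximation. The script was tested on simulated data. The members and lists were chosen with earlier results of these data known. Named are the members, all contigs of their clusters, 20 trafficking unigenes from the study's list of changed unigenes, and the 2 nearest unigenes by level. Alternatives were pseudocounts, recentring, cluster sums, another test, a filter and an assumed spread. The software was Python 3.11.15 with scipy 1.17.1, numpy 2.4.6, pandas 2.3.3 and, for figures, matplotlib 3.10.9.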

Additional observations from a re-analysis of the deposited data

How the results depend on the processing

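No paired analysis was possible because each condition has 1 library. Summed over the cluster, the log2 ratio of CL10284.Contig4 reversed, with 0.45 in place of -3.39, while that of CL7211.Contig1 was 1.81 in place of 2.06 and that of CL1904.Contig13 1.43 in place of 2.16. With 1 FPKM added to both libraries CL10284.Contig4 had -0.84, since its level is near or below 1 FPKM. The ratios of the other 4 stayed within their counting intervals with 0.1 or 1 FPKM added, but that of CL7211.Contig1 was 1.94 with 1 FPKM added, below the log2 ratio of 2 used for the calls. All 5 stayed within them after recentring on the median or the upper quartile. The 5 calls held with an exact binomial test, with a filter of 10 fragments and after recentring. An assumed coefficient of variation of 0.2 left 4, and 0.4 left 0. Calls that held are no independent support, because the members were selected on these same counts. Over all unigenes, 0.2 left 405 of 4539 higher and 183 of 3838 lower calls at a log2 ratio of 1, and 371 of 1311 and 172 of 912 at a log2 ratio of 2, while 0.4 left 0 in each case. Past 2-fold, 11 of the 20 other contigs of the members' clusters were higher, among them the selected CL1904.Contig6, and 1 lower, against 2 and 0 with 1 FPKM added, because most of these contigs lie near or below 1 FPKM. The limit of all values is the single library per condition, and for CL10284.Contig4 also its 2 and 21 fragments.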
